A study of Mus musculus with 6 samples.

Results

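The interleukin-6 (IL-6) family cytokines and their receptors were examined in C3H10T1/2 cells, a mouse mesenchymal line that can form fat, muscle, bone or cartilage cells. The family was taken as a list of 10 genes, 5 cytokines (Il6, Il11, Lif, Clcf1 and Ctf1) and 5 receptor genes (Il6ra, Il11ra1, Il6st, Lifr and Osmr), and every probe whose only gene symbol in the supplied annotation was on the list was used. This gave 12 probes of 9 genes among 38467 probes and 19640 genes on the array. Il11ra1 was not analysed here. The study compared 3 cultures given the solvent DMSO (vehicle) with 3 given 1 µM dexamethasone, a synthetic glucocorticoid, each for 90 minutes per the sample titles. Both groups are the same cell line with no genetic change named, grown in medium with serum, and the series text calls the cultures biological replicates. Each sample was labelled with Cy3 and hybridised on a two-colour array against a Cy5-labelled pool of C3H10T1/2 RNA, which per the labels also held RNA of cells given myostatin.

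Cytokines of this family signal through gp130, the product of Il6st. IL-6 and IL-11 first bind their own receptor chains (Il6ra, Il11ra1), whereas LIF, cardiotrophin 1 (Ctf1) and cardiotrophin-like cytokine (Clcf1) bring gp130 together with the LIF receptor (Lifr), and oncostatin M uses the Osmr chain. The receptor complex activates JAK kinases and the transcription factor STAT3, and SOCS3 shuts the signal off. Stromal cells and fibroblasts are known sources of IL-6, LIF and IL-11. Glucocorticoids are known to repress Il6 in many cell types and to raise Il6ra in liver cells.

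Values are given as deposited and read as log2 ratios of sample to pool, so a value of 0 would mean the level of the pool. That scale is inferred from the values, and 1 vehicle array and all 3 dexamethasone arrays also hold values too large for a log2 ratio (none of them at a member), so the folds given hold only on this reading. They show how a gene differs between arrays and say nothing about its level relative to another gene. The labels do not say which way the ratio was taken. Sample over pool was taken as likely, since 5 of 6 textbook glucocorticoid targets (all but Zbtb16) were then higher with dexamethasone. The lowest Spearman correlation between arrays over all probes was -0.33, between vehicle 2 and dexamethasone 3. These arrays also differed in missing values (825 and 4290), and the cause of the negative correlation was not tested. If the ratio ran the other way, all directions given here would be the opposite. The arrays differed in quality: their medians ran from -0.12 to 0.57, missing values from 552 to 4290, and the share of values equal to the log2 of a whole-number ratio (terms 1 to 10) from 1.86% to 12.7%. Vehicle 3, dexamethasone 2 and dexamethasone 3 had over 5% of such values and are called array set B, and vehicle 1, vehicle 2 and dexamethasone 1 array set A. The median difference between dexamethasone and vehicle over all 27046 genes and unnamed probes tested was 0.32. Subtracting each array's own median brought it to 0.02. Relative to the median of all features the members' differences were -2.83 for Il6, -0.65 for Il11, 0.32 for Lif, -0.52 for Clcf1, 0.05 for Ctf1, 1.44 for Il6ra, -0.50 for Il6st, 0.55 for Lifr and -1.06 for Osmr.

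Among the family, Il6ra stood apart: as deposited, both of its probes were higher on all 3 dexamethasone arrays than on all 3 vehicle arrays, by 3.38-fold for the gene. After median centring, probe mMA034798 was barely above the highest vehicle array on dexamethasone 2 (-1.127, against -1.134 on vehicle 2). Osmr was 1.67-fold lower with dexamethasone, also with no overlap between the groups. The cytokine genes and the other receptor genes gave overlapping groups. Il6, Lif and Lifr each had a dexamethasone array far from the others, and the shared chain Il6st had an interval from -0.64 to 0.29 for its difference. limma called 0 of the 9 genes at a Benjamini-Hochberg adjusted p under 0.05, as it called 0% of all features. Before adjustment 2 of 9 had a p under 0.05, Il6ra higher and Osmr lower, against 4.43% of all features higher and 0.995% lower. The count was 1, with Osmr no longer in it, with the replicate block, the array set block, median centring, quantile normalization, and without any 1 array other than dexamethasone replicate 1. Groups did not overlap in 1 member with dexamethasone above and in 1 below, against 8.42% and 6.16% of all features. The median difference of the 9 genes was -0.18, which is -0.50 relative to all features.

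**Figure D1:**
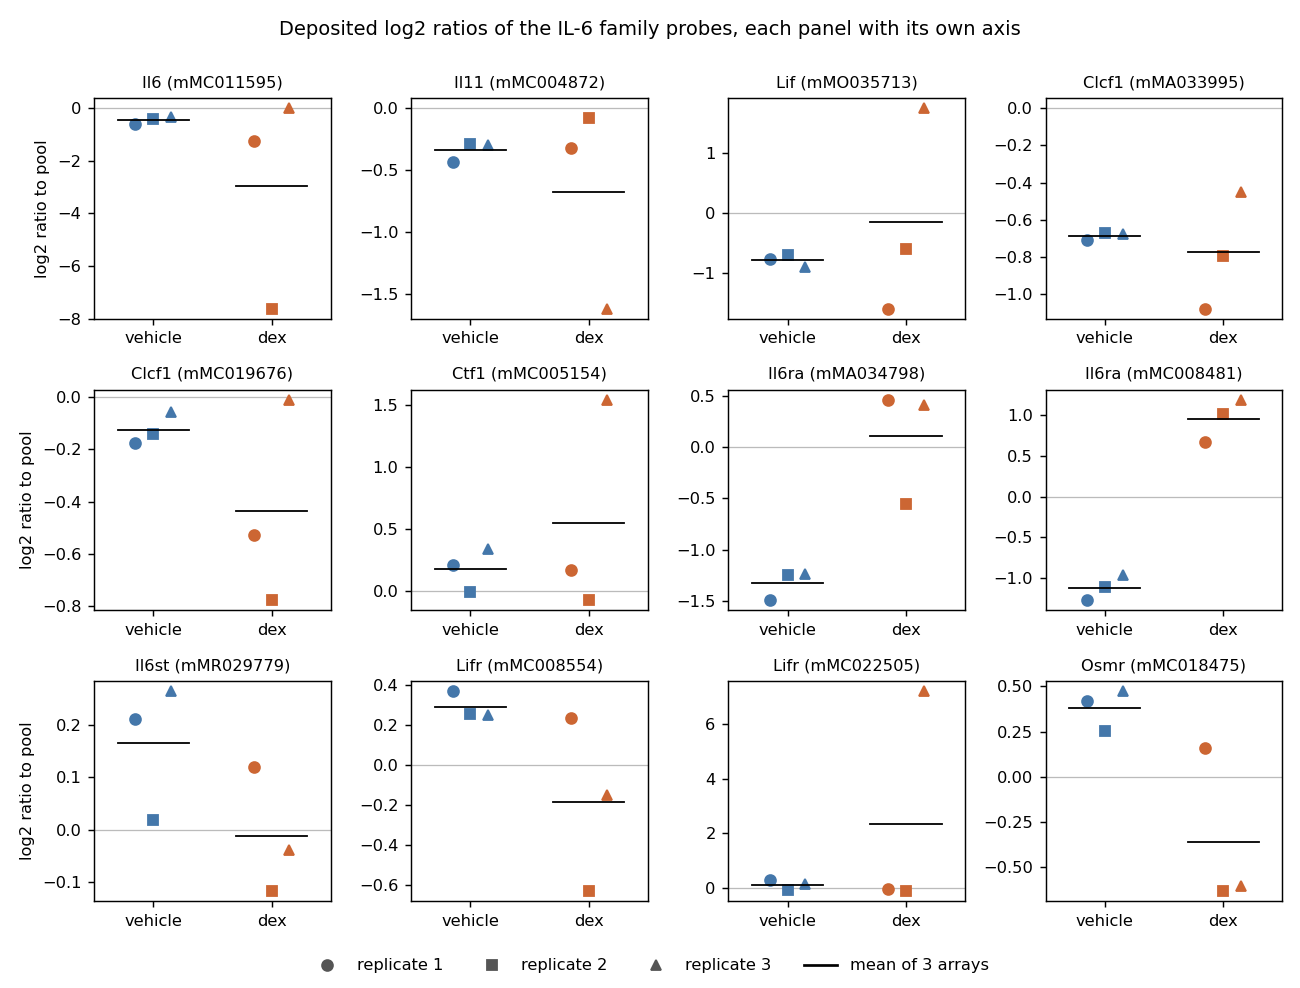
Deposited log2 ratio to the pool of the 12 probes, with 1 point per array (circle, square and triangle for replicates 1, 2 and 3; vehicle on the left, dexamethasone, written dex, on the right) and a line at the mean of 3 arrays; each panel has its own axis. Both Il6ra probes are higher on every dexamethasone array, while Il6 on dexamethasone 2 (-7.62) and a Lifr probe on dexamethasone 3 (7.19) lie far from the other arrays.

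The cytokine Il6 itself was variable with dexamethasone. Its probe (mMC011595) read -0.60, -0.42 and -0.34 with vehicle and -1.26, -7.62 and 0.000 on dexamethasone 1, 2 and 3. As deposited, the dexamethasone arrays therefore lay on both sides of the vehicle arrays, and the value of 0.000 on dexamethasone 3 equals the log2 of a ratio of equal whole numbers. After median centring dexamethasone 3 (-0.407) lay among the vehicle arrays (-0.498 to -0.301). Dexamethasone 1 and 2 were then below them (-1.139 and -8.195). Before centring the difference was -2.51 ± 2.10 (SE), with a 95% interval from -7.87 to 2.86 and a limma adjusted p of 0.732. It rested on a single array: with dexamethasone 2 left out it was -0.18, whereas it was -3.99 with dexamethasone 3 left out and -3.36 with dexamethasone 1 left out. In array set A, where dexamethasone 1 is set against vehicle 1 and 2, the difference was -0.75, or -0.70 relative to all features.

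The 250 bases before the Il6 start are shown because glucocorticoid repression of Il6 is usually described through factors bound there. They come from RefSeq (GRCm38.p6, chr5:30012864-30013113, plus strand) and are written 5′ to 3′, with matches to the searched motifs in capitals.
Il6: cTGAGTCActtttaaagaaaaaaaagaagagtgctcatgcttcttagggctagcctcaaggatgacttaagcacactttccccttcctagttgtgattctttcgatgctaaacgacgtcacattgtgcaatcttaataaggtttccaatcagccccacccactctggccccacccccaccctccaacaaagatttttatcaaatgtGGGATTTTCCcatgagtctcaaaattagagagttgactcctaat
The first run of capitals, at position -249 from the start, is a match to the AP-1 motif TGANTCA, and the second, at -44, is GGGATTTTCC, a match to the kappaB consensus. Of 32851 RefSeq windows of the same length, 6.75% held the AP-1 motif and 3.9% the kappaB consensus on either strand. The glucocorticoid receptor's hexamer AGAACA, an exact inverted repeat of that hexamer with 3 bases between, and the STAT motif TTCNNNGAA were also searched on both strands. They were in 16.1%, 0.00913% and 7.02% of all windows and had no match in any of the 12 windows of the 9 members with an entry, Il11ra1 included. The exact repeat was in only 3 of the 32851 windows, so no match in 12 tells little about it. Besides Il6, the AP-1 motif was in the Lif window (position -228) and in 1 of the Il11 windows (-98), and it had no match in the Ctf1 window or in any receptor gene's window. A match describes these letters only.

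Lif, which keeps mouse embryonic stem cells undifferentiated and acts on many mesenchymal cells, also varied among the dexamethasone arrays (SD 1.71, against 4.09 for Il6). Its probe (mMO035713) read -0.77, -0.71 and -0.90 with vehicle and -1.60, -0.60 and 1.74 with dexamethasone. As deposited, dexamethasone 1 was below and dexamethasone 2 and 3 were above all vehicle arrays, and the value on dexamethasone 3 equals a ratio of small whole numbers. After median centring dexamethasone 2 was also below all vehicle arrays (-1.177, against -1.058 on vehicle 3, the lowest). Before centring the difference of 0.64 ± 0.89 (SE) had a limma adjusted p of 0.798 and turned to -0.31 without dexamethasone replicate 3. Set A gave -0.86 and set B 1.47, opposite in sign. Lif and Il6 were the 2 members left out by a low-signal filter. The filter drops a probe if any of its 6 values is missing, is more than 10 from 0 or equals such a ratio of whole numbers, and 10 of 12 probes and 7 of 9 genes passed it.

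Il11, a cytokine that acts on stromal cells, bone and megakaryocytes, gave -0.43, -0.29 and -0.29 with vehicle and -0.32, -0.08 and -1.62 with dexamethasone (probe mMC004872). As deposited, dexamethasone 1 lay among the vehicle values, and only dexamethasone 3 was below all of them. After median centring dexamethasone 2 was also below all of them (-0.653, against -0.45 on vehicle 3, the lowest). Before centring the difference was -0.34 ± 0.45 (SE; limma adjusted p = 0.791) and became 0.14 without dexamethasone replicate 3. Ctf1, a cytokine known for its effect on heart muscle cells, gave 0.21, -0.01 and 0.34 with vehicle and 0.17, -0.07 and 1.55 with dexamethasone (probe mMC005154). Again dexamethasone 3 stood alone as deposited, and the difference of 0.37 ± 0.48 (SE; limma adjusted p = 0.786) was -0.13 without it. After median centring dexamethasone 2 was well below the vehicle arrays too (-0.646, against 0.105 on vehicle 2, the lowest).

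Clcf1, which binds the ciliary neurotrophic factor receptor, has 2 probes. Averaged, they read -0.44, -0.41 and -0.37 with vehicle and -0.80, -0.79 and -0.23 with dexamethasone. Dexamethasone 1 and 2 were below every vehicle array and dexamethasone 3 above. The difference was -0.20 ± 0.23 (SE), with a 95% interval from -0.79 to 0.39 and a limma adjusted p of 0.763; the probes gave -0.09 (mMA033995) and -0.31 (mMC019676). After median centring the difference was -0.51 ± 0.31 (SE) and the groups no longer overlapped, with a limma adjusted p of 0.738. Over the 5 cytokine genes, 3 differences were below 0 and 2 above, with a median of -0.20, and 0 passed even an unadjusted p of 0.05.

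Il6ra, the IL-6 binding chain of the receptor, gave the clearest separation of the family. Averaged over its 2 probes it read -1.38, -1.18 and -1.10 with vehicle and 0.57, 0.23 and 0.80 with dexamethasone. As deposited, every dexamethasone array was above 0 and every vehicle array below it. After median centring dexamethasone 2 was below 0 (-0.34), though still above the highest vehicle array (-1.07 on vehicle 2). Before centring the means were -1.22 ± 0.14 (SD, n = 3) and 0.53 ± 0.29 (SD, n = 3), and the difference of 1.76 ± 0.23 (SE) had a 95% interval from 1.18 to 2.34. It ranked 62 of 27046 by p, with an unadjusted limma p of 0.000532 and an adjusted p of 0.228. It was 1.45 ± 0.36 (SE) after median centring, with an adjusted p of 0.738 by limma. The difference was 1.85 within array set A and 1.62 within set B.

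The probes of Il6ra differed in size but not in direction. Probe mMC008481 read -1.27, -1.12 and -0.97 with vehicle and 0.67, 1.02 and 1.20 with dexamethasone. Probe mMA034798 read -1.49, -1.25 and -1.24 with vehicle and 0.46, -0.55 and 0.41 with dexamethasone. Dexamethasone 2 was the array on which they disagreed most, and on it the second probe stayed below the pool. After median centring the second probe read -1.127 on dexamethasone 2 and -1.134 on vehicle 2, so it hardly differed between these arrays. As deposited, the differences of the 2 probes were 2.08 ± 0.21 and 1.43 ± 0.33 (SE), 4.23-fold and 2.70-fold. Fitted probe by probe over 36465 probes, limma called 0 of the 12 at an adjusted p under 0.05 (0% of all probes), and the 3 at an unadjusted p under 0.05 were both Il6ra probes and the Osmr probe, against 4.45% of all probes higher and 1.36% lower. Without dexamethasone replicate 1, probe mMC008481 alone passed, with a limma adjusted p of 0.0461, against 0.434% of all probes; both dexamethasone arrays left are then of set B, as vehicle 3 is, so the treatment cannot be fully told apart from the array set there. Il6ra passed the low-signal filter, after which 0.169% of 17152 features were called and its limma adjusted p was 0.0765.

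Upstream sequence of the 2 receptor genes whose groups did not overlap is shown for comparison with Il6. Both come from RefSeq (GRCm38.p6), minus strand, Il6ra at chr3:89913197-89913446 and Osmr at chr15:6874314-6874563. Lower case throughout marks that no searched motif matched.
Il6ra: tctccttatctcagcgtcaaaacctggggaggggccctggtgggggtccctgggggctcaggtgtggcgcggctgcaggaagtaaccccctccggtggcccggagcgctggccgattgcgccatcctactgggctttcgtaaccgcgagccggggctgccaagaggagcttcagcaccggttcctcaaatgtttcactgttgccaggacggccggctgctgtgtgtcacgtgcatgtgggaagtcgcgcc
Osmr: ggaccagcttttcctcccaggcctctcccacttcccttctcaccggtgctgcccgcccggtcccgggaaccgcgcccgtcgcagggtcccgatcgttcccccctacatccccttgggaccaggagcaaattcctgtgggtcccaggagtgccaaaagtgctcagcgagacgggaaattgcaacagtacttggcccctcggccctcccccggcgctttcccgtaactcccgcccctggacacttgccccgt
The Il6ra and Osmr windows are 65.2% and 66.0% G or C, and the Il6 window is 42.8%. No match in a window says only that these letters are not in it.

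Osmr, the oncostatin M receptor chain that pairs with gp130, was the member lower with dexamethasone on every array. Its probe (mMC018475) read 0.42, 0.25 and 0.48 with vehicle and 0.16, -0.63 and -0.61 with dexamethasone. Dexamethasone 1 was just below the lowest vehicle array, and the other dexamethasone arrays were well below. The means were 0.38 ± 0.11 and -0.36 ± 0.45 (SD, n = 3 each). The difference was -0.74 ± 0.29 (SE), with a 95% interval from -1.47 to -0.013, an unadjusted limma p of 0.0474 and an adjusted p of 0.732. It differed between the array sets, at -0.18 in set A and -1.09 in set B. The unadjusted limma p was 0.0829 with the replicate block, 0.0873 with the array set block and 0.0677 after median centring. Leaving out any 1 array other than dexamethasone replicate 1 gave an unadjusted limma p from 0.0888 to 0.127. Without dexamethasone replicate 1, in the fit that cannot fully tell the treatment from the array set, the limma adjusted p was 0.0705.

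**Figure D2:**
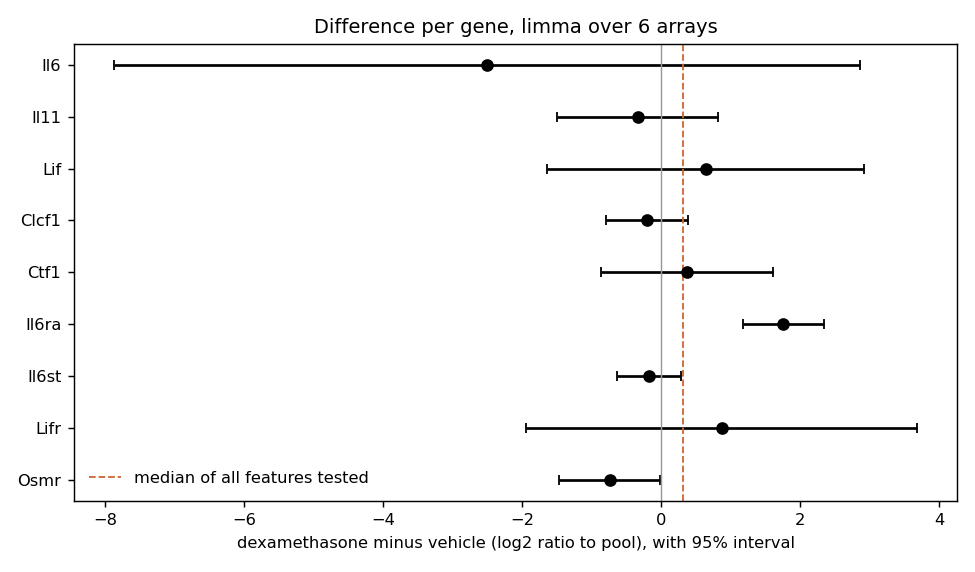
Dexamethasone minus vehicle difference in log2 ratio for the 9 genes, as points with 95% intervals from limma over 6 arrays; the dashed line is the median of all features tested (0.32). The Il6ra interval (1.18 to 2.34) lies wholly above that line, and the Il6 interval (-7.87 to 2.86) is the widest of the 9.

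Il6st, the gp130 chain shared by the 5 cytokines of the list, varied least among the dexamethasone arrays. Its probe (mMR029779) read 0.21, 0.02 and 0.26 with vehicle and 0.12, -0.12 and -0.04 with dexamethasone. The groups overlapped through vehicle 2 and dexamethasone 1. The difference was -0.18 ± 0.18 (SE; limma adjusted p = 0.745), with a 95% interval from -0.64 to 0.29, and it was 0.0055 in set A and -0.34 in set B.

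Lifr, the LIF receptor chain, has 2 probes that disagreed. Probe mMC008554 read 0.37, 0.26 and 0.25 with vehicle and 0.24, -0.63 and -0.15 with dexamethasone, with every dexamethasone array below every vehicle array, dexamethasone 1 by a small margin. After median centring its groups overlapped (0.352 on dexamethasone 1, 0.093 on vehicle 3). As deposited, probe mMC022505 read 0.29, -0.05 and 0.14 with vehicle and -0.03, -0.11 and 7.19 with dexamethasone. On dexamethasone 1 and 2 this probe was then close to vehicle, and dexamethasone 3 alone set its mean. After median centring it read -0.687 on dexamethasone 2, below the lowest vehicle array (-0.013 on vehicle 3). As deposited, the probes' differences were -0.48 ± 0.27 and 2.22 ± 2.16 (SE), with limma adjusted p of 0.694 and 0.714. The gene mean of 0.87 ± 1.10 (SE) lies between the probes, and it was -0.35 without dexamethasone replicate 3.

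Dexamethasone 3 moved several members at once. Without it, 4 of 9 genes (Il11, Lif, Ctf1 and Lifr) changed the sign of their difference, whereas leaving out any other single array changed none. The vehicle arrays were close to each other for every member, with SDs from 0.038 to 0.18, and the dexamethasone SDs ran from 0.12 to 4.09. Dexamethasone exceeded vehicle in SD for 8 of 9 genes, all but Il6st. Of the 12 probes, 5 had their value farthest from the probe's median on dexamethasone 3, 4 on dexamethasone 2, 2 on dexamethasone 1 and 1 on vehicle 3. The same counts were not made over all features, so they are not read as traits of the family. Missing values over the whole array ran from 1695 to 4290 on the dexamethasone arrays and from 552 to 932 on the vehicle arrays. Dexamethasone 3 also had the most missing values and the highest share of whole-number ratios, and the part of these in the members' values was not tested.

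**Figure D3:**
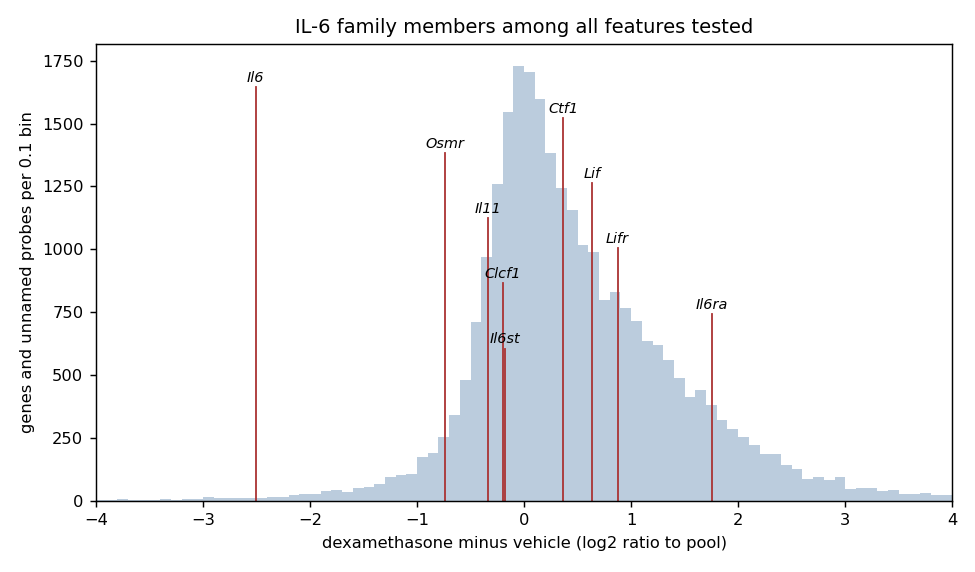
Histogram of the dexamethasone minus vehicle difference (log2 ratio to pool, bins of 0.1) over all 27046 features tested, of which 385 lie beyond 4 in size and are not drawn, with a line at each of the 9 members; the height of a line has no meaning. Il6 lies in the far lower tail, with 0.865% of features below it, and Il6ra has 89.4% of features below it.

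Il6ra and Osmr had the smallest p of the members, and the genes with the most similar pattern over the 6 arrays were looked up among 16510 genes with values on all arrays. For Il6ra these were Slc1a4, a neutral amino acid transporter gene (Pearson r = 0.998), Ccn1, a matricellular growth-response gene (0.998), and A230056P14Rik (0.998). Their differences were 0.60, 1.42 and 2.79 on the log2 scale. In all 3 the dexamethasone arrays were above the vehicle arrays, as in 8.42% of all features. Picking them by their correlation with Il6ra largely fixed that separation. For Osmr the most similar genes were Mpzl1, which encodes a cell surface glycoprotein (0.998), Haus4, a mitotic spindle gene (0.998), and Mef2c, a transcription factor gene of muscle (0.997). Their differences were -0.39, -0.56 and -0.34. These correlations describe 6 arrays that share the pool and the treatment contrast.

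Beyond the members, other genes of the family were measured in 10 of 13 cases, and limma called 0 of them. Before adjustment 1 had a limma p under 0.05, higher, against 4.43% of all features. That count ran from 0 to 3 (without dexamethasone replicate 1). It was 0 with complete values or the low-signal filter. It was also 0 without vehicle replicate 1, vehicle replicate 2 or dexamethasone replicate 2. The median difference of the 10 genes was -0.01, against 0.32 for all features. Ctf2, which encodes the cardiotrophin relative neuropoietin, had a difference of 3.24 ± 1.01 (SE). It rested on 2 dexamethasone values (2.40 and 4.52), with none on dexamethasone 3. Cntfr, the ciliary neurotrophic factor receptor, had 2.25 ± 0.92 (SE). Il27, a cytokine subunit gene, had 0.84 ± 0.40 (SE) and Ebi3, its partner, -0.49 ± 0.27 (SE). The limma adjusted p was 0.732 for each of these 4. The probes of Ctf2, Cntfr and Il27 did not pass the low-signal filter. Osm, the ligand of Osmr, differed by -0.09 ± 0.23 (SE), named here for its role.

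Of the JAK-STAT pathway, 31 of 33 listed genes were measured, and limma called 0 of them; before adjustment 3 had a p under 0.05, of which 2 were higher and 1 was lower, against 4.43% and 0.995% of all features. That count was 1 with the replicate block, the array set block or without any 1 vehicle array or dexamethasone replicate 2, and 8 without dexamethasone replicate 1. Of the 10 kinase and STAT genes all 10 differences were below the median of all features, against 50% of features by definition, and 9 were below 0, against 31.8%. Their median was -0.29, or -0.61 relative to all features. After the low-signal filter 9 of 9 were below the median of the features that passed. Stat3, the main transcription factor of the family, had a difference of 0.05 ± 0.18 (SE), Jak1 -0.23 ± 0.20 (SE) and Jak2 -0.33 ± 0.20 (SE), all named for their role in gp130 signalling. Mesenchymal marker genes, fixed as a check on the cell type, had 9 of 11 differences below the median of all features and a median of -0.17; the 2 groups were not tested against each other.

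Among 16 inhibitors, 11 differences were above 0 and 5 below, with a median of 0.15, and 0 passed. Of all features 68.2% were above 0. Against the median of all features the split was 5 above and 11 below, as it was against 0 after median centring. By p the first were Socs2, a feedback inhibitor best known in growth hormone signalling (-0.34 ± 0.16 against 0.65 ± 0.36, SD, n = 3 each, limma adjusted p = 0.683), Socs6 (0.20 ± 0.09 against -0.35 ± 0.24), the phosphatase gene Ptpn6 (-0.37 ± 0.14 against 0.80 ± 0.80) and Socs5 (0.28 ± 0.12 against -0.52 ± 0.70), the last 3 with an adjusted p of 0.732. Over the 16 inhibitors the groups did not overlap in 2 genes with dexamethasone above and in 3 below, against 8.42% and 6.16% of all features, and these 4, picked by their p, are among them. Socs3, the feedback inhibitor that binds gp130 and is itself induced by STAT3, had 0.11 ± 0.06 against 0.42 ± 0.25 (SD, n = 3 each), with a difference of 0.30 ± 0.20 (SE) that was -0.006 after median centring. Among 5 adaptor genes the median was 0.34.

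**Figure D4:**
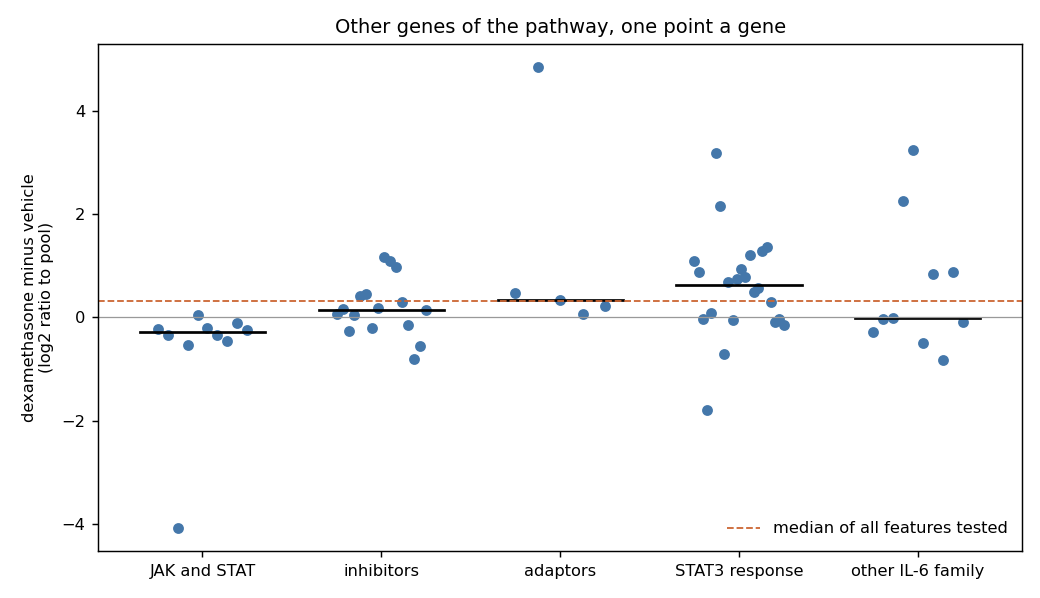
Dexamethasone minus vehicle difference (log2 ratio to pool) of each gene in the lists of JAK and STAT genes, inhibitors, adaptors, STAT3 response genes and other IL-6 family genes, with a black line at each list's median and a dashed line at the median of all features (0.32). The JAK and STAT genes all lie below the dashed line, and the STAT3 response genes have the highest median (0.62).

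Of 24 textbook STAT3 response genes 22 were measured. limma called 0 of them in the fit without the filter. Before adjustment 9 had a p under 0.05, of which 8 were higher and 1 was lower, against 4.43% and 0.995% of all features. That count was 6 with the replicate block, 5 after median centring and 4 after quantile normalization, and it ran from 4 (without vehicle replicate 2 or 3) to 11 (without dexamethasone replicate 1). Their median difference was 0.62, or 0.30 relative to all features. By p the first was Cebpb (3.18 ± 0.24, SE), a transcription factor of the acute phase and of early fat cell differentiation, followed by the chemokine gene Ccl2, which was lower (-1.80 ± 0.20, SE). Next came Cebpd (2.16 ± 0.35, SE), a partner of Cebpb, and Bcl2l1 (1.10 ± 0.19, SE), which encodes the survival protein Bcl-xL. After the low-signal filter 2 of 19 were called, Cebpb higher (limma adjusted p = 0.0358) and Ccl2 lower (0.0487), against 0.152% and 0.0175% of all features. Several of these genes are also known glucocorticoid receptor targets, so the list does not separate STAT3 from the receptor.

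Markers of other cell types were read in the same way, since leukocytes also express Il6ra. The medians were 0.95 for 7 leukocyte, 1.25 for 4 endothelial and 1.16 for 4 epithelial genes, against 0.32 for all features. limma called 0 in each list, as it called 0% of all features. At an unadjusted limma p under 0.05 there was 1 leukocyte gene, higher, and 0 in the other lists, against 4.43% of all features higher. That gene (Cd3e) had no value on dexamethasone 1 and did not pass the low-signal filter. Only 2 genes in each of these lists passed the low-signal filter. Ratios to a pool give no level for these markers, and their part in the Il6ra difference was not tested.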

How the data were processed

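Transcript levels were measured in 6 RNA samples on two-colour arrays, per the labels' protocols with each sample in Cy3 against 1 Cy5 pool. All 6 deposited columns were read as log2 ratios, a scale judged from their range and steps. In 4 of them (vehicle 3 and the dexamethasone arrays) 53 deposited values exceed 100 in size, which no log2 ratio gives, so the unit of these columns is named only a score; they were analysed in the same way. The authors used limma, per the submitters' processing notes; the steps it ran are not stated there.

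Probes were named by the supplied platform annotation (29456 with 1 symbol, 760 with several, 8251 unlisted), and Entrez identifiers were found for 28735, changing 0 symbols. Probes of a gene were averaged, genes and unnamed probes with at least 2 values per group were kept, and limma 3.58.1 in R 4.3.3 (lmFit, eBayes, two-sided, Benjamini-Hochberg over all features at 0.05) was fitted without a block. SE is moderated; intervals are 95%. Simulated data were used to test it. With 3 against 3 arrays an exact permutation test cannot go below 0.1, so none was run, and the number of arrays limits the precision. Fold is 2 to the power of the difference.

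Non-overlap was counted only for features with all 6 values. The members and lists were chosen with earlier results of these data known. Named genes were all members, the 4 smallest p of each list and the 3 genes most correlated with the 2 members of smallest p. Exceptions are stated. Alternatives were a replicate block, median centring, quantile normalization, filters on low signal, missing and extreme values, array weights, an array set block and leaving out each array. Same-numbered arrays did not deviate together throughout (r of 0.30, -0.10 and 0.24), so the numbers were not taken as pairs. Promoter windows are the 250 bases before a RefSeq start (GRCm38.p6); Clcf1 had none.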

Additional observations from a re-analysis of the deposited data

How the results depend on the processing

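Il6ra kept its direction in all 19 alternatives that gave a value, from 1.43 to 2.08 on the log2 scale, with limma adjusted p from 0.0668 to 0.990, so its call did not change. Osmr kept its direction in its 17, from -1.59 (quantile normalization) to -0.18 (array set A). The replicate block called 0 features, 0 members and 0 of the members' probes. Over all features limma called 29 after the low-signal filter, 5 with complete values and 10 with the filter and median centring together, a setting added after seeing the data; the STAT3 response list gave 2 and 2 with the filter alone and with both. Without 1 array the count of family probes called ran from 0 to 1. The 1 was without dexamethasone replicate 1, where 0.434% of all 32231 probes tested were called. In the fits per gene, the counts over all features, the members and the gene lists stayed at 0 without any 1 array. The sign turned within array set A for Il11 (0.036), Lif (-0.86), Il6st (0.0055) and Lifr (-0.12), after quantile normalization for Ctf1 (-0.235) and Lifr (-0.043), and for Lifr probe mMC008554 alone (-0.48). Leaving out 1 array gave -0.63 to 0.14 for Il11, -0.31 to 1.36 for Lif, -0.13 to 0.68 for Ctf1 and -0.35 to 1.60 for Lifr. The cause was not tested. No intensities were used here, so which values come from dim spots was not measured; Il6 and Lif on dexamethasone 3 equal ratios of whole numbers.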
